A study of Oryza sativa Indica Group with 27 samples.

Results

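CPS2, CYP71Z7 and CYP99A2 are rice genes for enzymes of diterpenoid phytoalexin synthesis. They were chosen by their intensities on the arrays analysed here, which peak in salt-stressed IR29 seedlings at 3 h. Matching the 3 names to gene symbols and synonyms gave 1 probe set for each gene, so they are 3 of the 17905 genes, and 3 of the 57194 probe sets, that were tested. Each of these probe sets is paired with 1 gene. CPS2 is LOC9266189, CYP71Z7 is LOC4329726 and CYP99A2 is LOC4335096. Their probe set names carry no suffix that marks probes shared with similar transcripts.

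Whole seedlings of 3 indica rice cultivars, 7 days old and grown in hydroponic medium, were either left in medium for 6 h or moved to 200 mM NaCl for 3 h or 6 h. IR29 is salt-susceptible, and Nonabokra and Pokkali are salt-tolerant. Each of the 9 groups has 3 arrays of labelled total RNA, described as biological replicates. The unstressed plants were kept for 6 h only, so salt and time in fresh solution cannot be told apart in a comparison of 3 h salt with control. Drought appears in 1 label field of the seedlings treated for 3 h, but titles, characteristics and treatment name salt, which is used here.

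Rice answers pathogens and other stresses with labdane-related diterpenoids, which act as antimicrobial phytoalexins and, when released from roots, as inhibitors of other plants. Geranylgeranyl diphosphate is cyclised by a copalyl diphosphate synthase, then by a kaurene synthase-like enzyme (KSL), and the hydrocarbon is oxidised by cytochromes P450. CPS2 makes ent-copalyl diphosphate for phytocassanes and oryzalides. CYP71Z7 is a P450 that hydroxylates the phytocassane skeleton. CYP99A2 is a P450 of the momilactone branch, which starts from syn-copalyl diphosphate made by CPS4. The genes of the 2 branches lie largely in gene clusters on chromosomes 2 and 4. Gibberellin hormones draw on the same precursor through CPS1.

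All values below are the deposited linear intensities, and array medians ran from 7.09 to 7.77, which marks how dim a typical probe set is. Differences are on the log2(intensity + 16) scale, which understates the change of dim transcripts. The level of one probe set cannot be set against that of another, and a sequence difference between a cultivar and the probes could shift its level, which was not tested. Because the seedlings were analysed whole, fewer cells of a type and less RNA per cell cannot be told apart. Overlap of arrays between groups is given as description, and its share over all probe sets was not counted.

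In IR29, the 3 genes were at low intensity without salt, highest at 3 h and between these levels at 6 h. These values chose the genes and are given as a description, with no test. CPS2 had intensities of 15.3, 13.1 and 16.2 in unstressed IR29, 475, 540 and 502 at 3 h of salt, and 21.0, 39.9 and 38.3 at 6 h. All 3 arrays at 3 h lay far above the rest, and all 3 at 6 h lay above the unstressed ones. CYP71Z7 had 31.8, 32.6 and 34.0 without salt, 612, 572 and 584 at 3 h, and 153, 163 and 150 at 6 h. CYP99A2 had 20.7, 20.8 and 26.4 without salt, 512, 490 and 505 at 3 h, and 90.5, 88.5 and 66.0 at 6 h. None of the 3 time groups overlapped for these P450 genes. Ratios of the 3 h mean to the unstressed mean were 34.0 for CPS2, 17.97 for CYP71Z7 and 22.2 for CYP99A2. At 6 h the ratios to the unstressed mean were 2.22, 4.74 and 3.61 in the same order of genes. On the log2 scale the differences at 3 h were 4.08 ± 0.10 (SE, n = 3 arrays per group) for CPS2, 3.63 ± 0.07 for CYP71Z7 and 3.75 ± 0.08 for CYP99A2. From 3 h to 6 h of salt in IR29, the differences were -3.43 for CPS2, -1.82 for CYP71Z7 and -2.42 for CYP99A2. Of all probe sets, 15.7% were higher at 3 h of salt than in unstressed IR29 at an adjusted p under 0.05, and 2.81% were also at least 2-fold higher. A further 48.2% passed as lower in that comparison but only 1.58% by at least 2-fold, so counts in IR29 at 3 h are given below by both criteria.

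**Figure D1:**
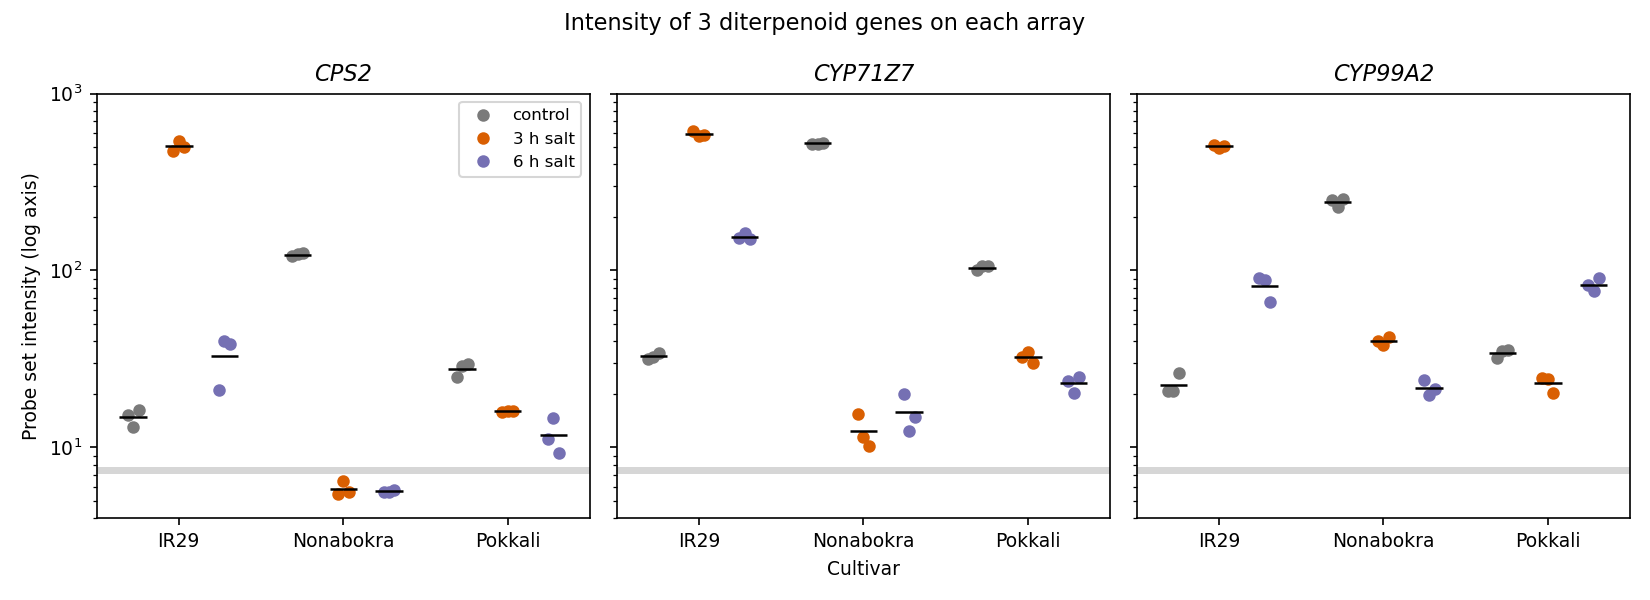
Intensity of CPS2, CYP71Z7 and CYP99A2 on each of the 27 arrays (log axis), by cultivar and, within a cultivar, control, 3 h and 6 h of salt. Points are arrays, bars are group means of 3 arrays, and the grey band spans the array medians of 7.09 to 7.77. IR29 at 3 h and unstressed Nonabokra are the 2 groups with the highest means for each gene.

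In Nonabokra, the 3 genes ran the opposite way: they were high without salt and lower at both times. CPS2 had 120, 123 and 125 in unstressed Nonabokra, 5.47, 6.43 and 5.57 at 3 h of salt, and 5.59, 5.62 and 5.75 at 6 h. The salt-treated arrays lay below every array median, so CPS2 was at the dim end of the arrays there. CYP71Z7 had 520, 517 and 528 without salt, 15.4, 11.5 and 10.2 at 3 h, and 20.1, 12.3 and 14.9 at 6 h. CYP99A2 had 249, 228 and 255 without salt, 39.8, 37.8 and 42.2 at 3 h, and 24.1, 19.8 and 21.4 at 6 h. For each gene, no salt-treated array reached the range of the unstressed ones. The unstressed mean exceeded the 3 h mean by a ratio of 42.2 for CYP71Z7 and 6.11 for CYP99A2. No ratio is given for CPS2, whose salt-treated level was too dim for one.

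All 3 genes fell at both times in Nonabokra by limma's moderated test, which gives adjusted p over all tested probe sets. At 3 h, 14.9% of all probe sets passed as lower, 3.29% by at least 2-fold, and at 6 h these shares were 12.2% and 2.03%. CPS2 differed by -2.67 ± 0.10 at 3 h (adjusted p = 4.01e-14) and by -2.68 ± 0.10 at 6 h (adjusted p = 7.95e-14). CYP71Z7 differed by -4.25 ± 0.07 at 3 h (adjusted p = 1.02e-19) and by -4.09 ± 0.07 at 6 h (adjusted p = 3.90e-19). CYP99A2 differed by -2.22 ± 0.08 at 3 h (adjusted p = 2.40e-14) and by -2.78 ± 0.08 at 6 h (adjusted p = 1.50e-15). The fall of CYP71Z7 in Nonabokra was already known when the genes were chosen, so its test is not independent evidence of that fall. Errors are standard errors of the fit, and both times share the 3 unstressed arrays. With a pseudocount of 1 in place of 16, the 3 h difference of CPS2 was -4.18, since its salt-treated level is dim. With 64 it was -1.42, and every such call held.

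The times differed in Nonabokra for 1 of the 3 genes. CYP99A2 fell further between 3 h and 6 h of salt, by 0.57 on the log2 scale (adjusted p = 2.77e-05, 10.9% of all probe sets lower). CPS2 differed by -0.01 between the times (adjusted p = 1.00), at levels under the array medians on all 6 arrays. CYP71Z7 differed by 0.16 (adjusted p = 0.143). Without replicate 1 at 3 h or replicate 2 at 6 h, that difference passed, at 0.24 each time.

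In Pokkali, CPS2 and CYP71Z7 fell at both times, by less than in Nonabokra and from lower unstressed levels. CYP99A2 fell at 3 h and rose at 6 h. CPS2 had 25.1, 28.7 and 29.5 in unstressed Pokkali, 15.9, 16.1 and 16.2 at 3 h of salt, and 11.2, 14.7 and 9.35 at 6 h. CYP71Z7 had 100.02, 105 and 106 without salt, 32.5, 34.6 and 29.9 at 3 h, and 23.8, 20.3 and 25.02 at 6 h. CYP99A2 had 32.1, 35.2 and 35.6 without salt, 24.5, 24.5 and 20.2 at 3 h, and 82.7, 76.5 and 90.4 at 6 h. No salt group overlapped its unstressed group for any of the 3 genes. At 3 h the differences were -0.45 ± 0.10 for CPS2 (adjusted p = 0.00232), -1.31 ± 0.07 for CYP71Z7 (adjusted p = 9.76e-12) and -0.37 ± 0.08 for CYP99A2 (adjusted p = 0.00194). In that comparison 13.4% of all probe sets passed as lower. At 6 h, CPS2 differed by -0.66 ± 0.10 (adjusted p = 5.86e-05) and CYP71Z7 by -1.62 ± 0.07 (adjusted p = 7.11e-13), with 12.1% of all probe sets lower. CYP99A2 was higher by 0.98 ± 0.08 at 6 h than without salt (adjusted p = 1.63e-08, 10.1% of all probe sets higher).

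Between 3 h and 6 h of salt in Pokkali, CYP99A2 rose by 1.34 ± 0.08 (adjusted p = 2.53e-10) and CYP71Z7 fell by 0.31 (adjusted p = 0.00315). Over all probe sets, 11.1% passed as higher and 17.1% as lower. CPS2 differed by -0.21 (adjusted p = 0.114). With 3 arrays that agreed least with their groups left out together, a choice made after seeing the data, this difference passed at the same size (adjusted p = 0.0137). At 6 h in Pokkali, CYP99A2, a P450 of the momilactone branch, averaged 83.2 ± 6.97 (SD, n = 3), against 34.3 ± 1.89 without salt. CPS2 and CYP71Z7 were below their unstressed levels there. Of the 5 other measured momilactone genes, 2 were higher there than without salt and 0 lower (10.1% and 12.1% of all probe sets). Of the 7 others of the phytocassane and oryzalide branch, 1 was higher and 2 were lower.

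Without salt, each gene was higher in Nonabokra than in Pokkali. The difference was 1.67 ± 0.10 for CPS2 (adjusted p = 1.33e-10), 2.17 ± 0.07 for CYP71Z7 (adjusted p = 4.41e-15) and 2.37 ± 0.08 for CYP99A2 (adjusted p = 1.44e-14). Of all probe sets, 9.23% passed as higher in that comparison and 1.60% by at least 2-fold. The comparison with unstressed IR29, given without a test, was 2.17, 3.46 and 2.75 for Nonabokra minus IR29 and 0.50, 1.29 and 0.38 for Pokkali minus IR29, in the same order of genes. The unstressed Nonabokra arrays enter both this comparison and the fall under salt.

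The salt response itself differed between Nonabokra and Pokkali for each gene at each time. Each gene started lower in Pokkali, so the unstressed levels enter these differences, and a dim start leaves less room to fall. CPS2 averaged 27.7 in unstressed Pokkali and 123 in unstressed Nonabokra. At 3 h of salt, CYP99A2 averaged 39.9 in Nonabokra and 23.1 in Pokkali, so it was still higher in Nonabokra. The response in Nonabokra minus that in Pokkali at 3 h was -2.22 ± 0.15 for CPS2 (adjusted p = 1.03e-09), -2.94 ± 0.10 for CYP71Z7 (adjusted p = 5.19e-14) and -1.85 ± 0.12 for CYP99A2 (adjusted p = 6.33e-10). At that time 5.91% of all probe sets passed as lower by this test. At 6 h the difference of responses was -2.02 for CPS2 (adjusted p = 4.49e-09), -2.47 for CYP71Z7 (adjusted p = 8.03e-13) and -3.76 for CYP99A2 (adjusted p = 1.22e-14), with 7.92% of all probe sets lower. The response in IR29 minus that in Nonabokra at 3 h was 6.75 for CPS2, 7.88 for CYP71Z7 and 5.97 for CYP99A2, without a test.

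Ordered by mean intensity, IR29 at 3 h stood first and unstressed Nonabokra second for each gene, and neither group overlapped the next. CPS2 then had IR29 at 6 h and unstressed Pokkali, whose arrays overlapped. Its next 3 groups were Pokkali at 3 h, unstressed IR29 and Pokkali at 6 h, each overlapping the next, and both Nonabokra salt groups came last. CYP71Z7 continued with IR29 at 6 h and unstressed Pokkali, which did not overlap, then unstressed IR29 and Pokkali at 3 h, which did. CYP99A2 continued with Pokkali and IR29 at 6 h, which overlapped, then Nonabokra at 3 h and unstressed Pokkali, which did not. Its lowest 3 groups, Pokkali at 3 h, unstressed IR29 and Nonabokra at 6 h, overlapped neighbour by neighbour.

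Over the 6 group means of Nonabokra and Pokkali, Pearson's r between CPS2 and CYP71Z7 on the log2 scale was 0.991, between CPS2 and CYP99A2 0.818, and between CYP71Z7 and CYP99A2 0.769. These describe 6 points that share arrays. Of 14905 probe sets with 1 gene and a group mean of at least 100, 2359 belong to a gene with a symbol other than a locus number. Among these, the 5 whose 9 group means most resembled each of the 3 genes are named with their r, so genes without such a symbol, LOC4329723 described below among them, could not enter. For CPS2 they were KSL4 (0.974), EP3A (0.964), MOR1 (0.940), CYP71Z7 (0.924) and CYP701A8 (0.921). EP3A had a mean of 1037 in IR29 at 3 h, 171 in unstressed Nonabokra and from 5.12 to 6.51 in the other 7 groups. For CYP71Z7 the list was CPS2 (0.924), FLO6 (0.914), PBZ1 (0.909), CM-LOX2 (0.895) and MOR1 (0.884). PBZ1, a pathogenesis-related protein gene of the PR10 family, had its highest mean, 22790, in IR29 at 3 h. For CYP99A2 it was CYP701A8 (0.949), MOR1 (0.947), KSL4 (0.937), CPS4 (0.933) and CPS2 (0.916). MOR1 entered with 1 probe set for CPS2 and CYP99A2, with group means from 682 to 958, and with another for CYP71Z7, with means from 1105 to 1331. Both ranges are narrow, so the measure gives no weight to the size of a change. Values above 0.9 were reached, of the 14905, by 18 probe sets for CPS2, 7 for CYP71Z7 and 11 for CYP99A2. By rank correlation, 1, 3 and 2 of the 5 genes in each list stayed in the first 5. The 9 means include IR29 at 3 h, whose peak chose the 3 genes, so the lists are description and no independent support. KSL4 reached a mean of 100 only in IR29 at 3 h (170, against 53.7 in unstressed Nonabokra). CM-LOX2 reached it only in IR29, at 3 h (110) and 6 h (112).

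The other measured genes of the 2 branches were described next, 12 in all, and every one of them is named here. The 12 include the entry named CYP76M7, which may not be the branch enzyme, as told below. In IR29 at 3 h, 8 of 12 were higher and 0 were lower, 7 by at least 2-fold, and their median difference was 1.24 against -0.01 over all probe sets. In Nonabokra at 3 h, 10 of 12 were lower and 0 higher, 6 by at least 2-fold, with a median of -0.81 against -0.00 over all. At 6 h in Nonabokra the counts were again 10 lower and 0 higher, and 7 were lower with the compared groups fitted alone. In Pokkali, 3 of 12 were lower at 3 h, and at 6 h 2 were lower and 3 higher. Several of the 12 were dim in unstressed Pokkali, which leaves little room for a fall. There KSL4 averaged 8.51, CPS4 8.82 and MAS 6.63, against 53.7, 128 and 19.0 in unstressed Nonabokra. KSL7 (148) and CYP71Z6 (277) were not dim in unstressed Pokkali. Of all probe sets, 13.4% were lower at 3 h in Pokkali, and 12.1% were lower and 10.1% higher at 6 h. These shares were 15.7% higher in IR29 at 3 h, and in Nonabokra 14.9% lower at 3 h and 12.2% at 6 h. By at least 2-fold at 3 h, 2.81% were higher in IR29 and 3.29% lower in Nonabokra.

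The cyclases act first in the pathway, and KSL7, CPS4 and KSL4 were higher at 3 h in IR29 and lower in Nonabokra. KSL7, the ent-cassadiene synthase that acts after CPS2, averaged 496 ± 50.9 (SD, n = 3) in IR29 at 3 h, against 237 ± 11.9 without salt, a difference of 1.01 (adjusted p = 9.10e-11). In Nonabokra it averaged 44.8 ± 5.25 at 3 h, against 258 ± 5.99 without salt, a difference of -2.18 (adjusted p = 3.31e-16). In Pokkali it averaged 62.8 ± 4.31 at 3 h, against 148 ± 6.14 without salt. Without salt its difference between Nonabokra and IR29 was 0.12 (adjusted p = 0.123), whereas CPS2 differed by 2.17 there, untested. CPS4, the syn-copalyl diphosphate synthase, averaged 158 ± 6.09 in IR29 at 3 h, against 10.5 ± 3.70 without salt, a difference of 2.72 (adjusted p = 8.61e-16). It fell by 1.59 in Nonabokra at 3 h (adjusted p = 1.61e-12), and rose by 1.42 in Pokkali at 6 h (adjusted p = 2.40e-11), where it averaged 50.6 ± 6.78 against 8.82 ± 0.52 without salt. KSL4, the syn-pimaradiene synthase that acts after CPS4, rose by 2.92 in IR29 at 3 h (adjusted p = 3.68e-13) and fell by 1.495 in Nonabokra (adjusted p = 5.52e-09). In Pokkali KSL4 stayed dim, with means of 8.51 without salt, 8.87 at 3 h and 11.8 at 6 h. CPS4 differed by 0.07 in Pokkali at 3 h (adjusted p = 0.802). KSL5, another ent-type synthase, had means from 5.91 to 11.1 in all 9 groups, differed by 0.00346 in IR29 at 3 h (adjusted p = 0.963) and by -0.29 in Nonabokra at 3 h (adjusted p = 0.000386), a call lost when the compared groups were fitted alone (adjusted p = 0.130).

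Among the P450 genes, CYP71Z6, the neighbour of CYP71Z7 and an oryzalide enzyme, averaged 228 ± 5.56 in IR29 at 3 h, against 72.3 ± 11.3 without salt (difference 1.47, adjusted p = 7.71e-10). At 6 h it averaged 84.0, and the difference of 0.18 from the unstressed level did not pass (adjusted p = 0.157). It fell by 1.05 in Nonabokra and by 1.06 in Pokkali at 3 h (adjusted p = 7.78e-08 and 7.48e-08). CYP76M8, a hydroxylase of ent-cassadiene, averaged 99.3 ± 11.5 in IR29 at 3 h and at most 15.0 in the other 8 groups. Its probe set carries a suffix for probes that may match similar transcripts. The entry that carries the name CYP76M7 lies on chromosome 6 in the gene table used here, outside both clusters, so whether its probe set measures the phytocassane enzyme of that name was not settled. It was higher only in Pokkali at 6 h among the 6 salt comparisons, with a mean of 61.9 ± 10.4 against 15.0 ± 2.13 without salt (difference 1.32, adjusted p = 1.50e-12). CYP76M5 and CYP76M6 had every group mean under the highest array median, the 2 such genes of the 15 measured. CYP76M5 passed in Nonabokra at 3 h at -0.10, a shift of a dim probe set. Without unstressed Nonabokra replicate 2 the differences there were -0.055 for CYP76M5 (adjusted p = 0.0831) and -0.19 for CYP76M8 (adjusted p = 0.0682), and neither passed.

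CYP99A3, the second CYP99A enzyme of the momilactone branch, averaged 13.4 ± 3.45 without salt in IR29, 118 ± 18.1 at 3 h and 66.9 ± 12.5 at 6 h. In Nonabokra it averaged 83.2 ± 8.59 at 3 h, against 280 ± 22.9 without salt (difference -1.58, adjusted p = 6.20e-09). In Pokkali it fell by 0.55 at 3 h (adjusted p = 0.00301) and rose by 0.96 at 6 h (adjusted p = 1.16e-05), the directions CYP99A2 took. CYP701A8, a P450 of the kaurene oxidase family that serves phytoalexin synthesis, rose by 2.99 in IR29 at 3 h (adjusted p = 1.36e-14) and fell by 1.96 in Nonabokra (adjusted p = 4.52e-12). Its mean in Pokkali was 53.0 at 3 h, against 57.3 without salt (adjusted p = 0.864). MAS, a dehydrogenase that completes momilactone A, rose by 0.57 in IR29 at 3 h (adjusted p = 1.05e-08), with a mean of 17.8 against 6.66 without salt. It fell by 0.57 in Nonabokra (adjusted p = 6.60e-09).

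**Figure D2:**
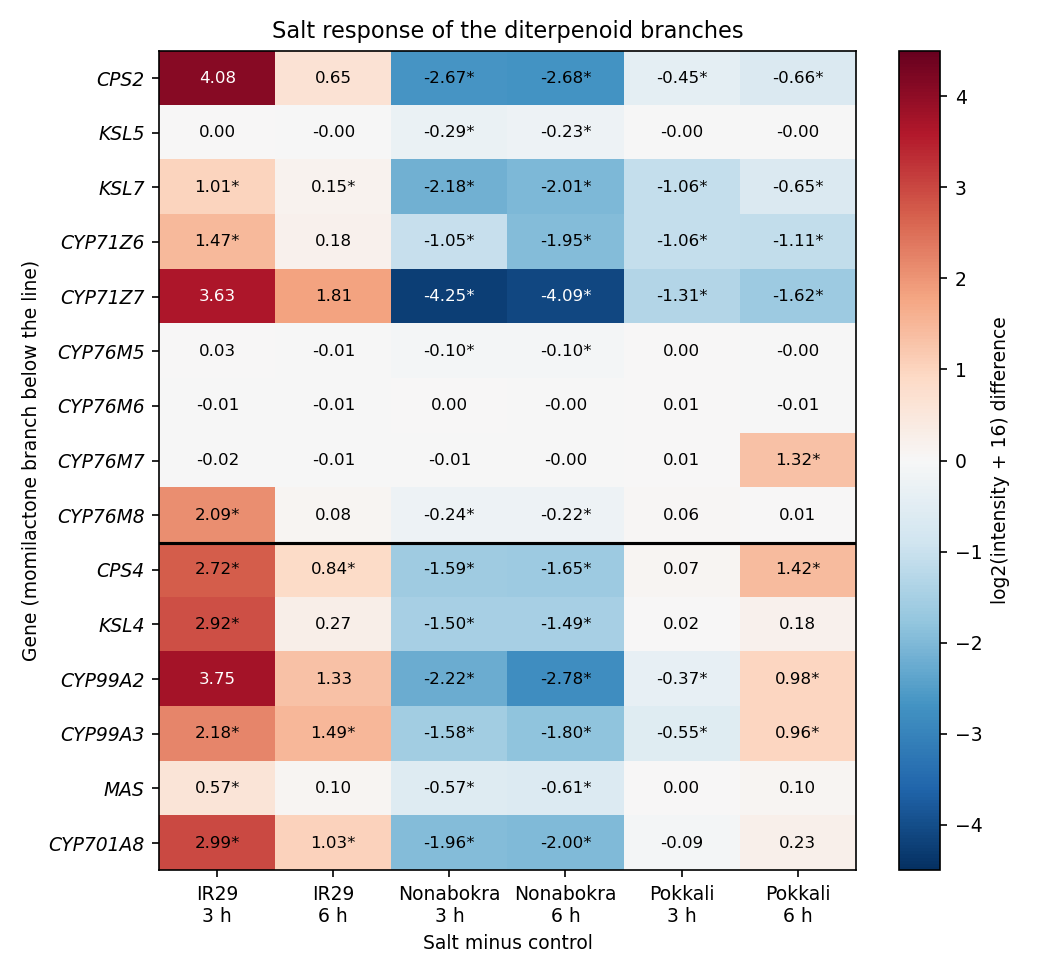
Difference between salt and control on the log2(intensity + 16) scale for the 15 measured branch genes, by cultivar and time, from blue (lower) to red (higher). An asterisk marks adjusted p under 0.05, and CPS2, CYP71Z7 and CYP99A2 carry no test in IR29; the row of CYP99A2 turns from -0.37 to 0.98 between the Pokkali columns.

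By branch, all 5 others of the momilactone branch were higher at 3 h in IR29, 4 by at least 2-fold (median difference 2.72), and all 5 were lower in Nonabokra, with a median of -1.58. Of the 7 others of the phytocassane and oryzalide branch, 3 were higher in IR29, all by at least 2-fold, and 5 lower in Nonabokra, with medians of 0.03 and -0.24. These 7 include the entry named CYP76M7, whose identity was not settled, and leave out LOC4329723, described below. No test of the difference between the branches was made. Without salt, 10 of the 12 genes were higher in Nonabokra than in Pokkali, against 9.23% of all probe sets. Only 1, the entry named CYP76M7, was lower, a direction that 10.1% of all probe sets took. Leaving the IR29 arrays and the salt arrays out of the fit reduced the count of higher genes to 6. Against unstressed IR29, 9 of 12 were higher in Nonabokra (13.4% of all probe sets) and 3 were higher in Pokkali (16.3%).

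The responses at 3 h were also compared directly. IR29 minus Nonabokra was positive for 10 of 12 genes at adjusted p under 0.05, 8 of them by at least 2-fold, while 10.8% and 2.02% of all probe sets passed by these criteria. The sizes reached 4.94 ± 0.15 for CYP701A8 (adjusted p = 4.43e-15), 4.41 for KSL4 and 4.31 for CPS4. IR29 minus Pokkali was positive for 8 of 12 genes, against 12.2% of all probe sets. Nonabokra minus Pokkali was negative for 8 of 12, against 5.91% of all probe sets. Several of the 12 were dim in unstressed Pokkali, which limits how far they could fall there.

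In RefSeq's gene order (assembly ASM3414082v1, a japonica genome, used for order only) CYP71Z7 and CPS2 are adjacent measured genes inside the chromosome 2 cluster, and CYP99A2 is at the edge of the chromosome 4 cluster. The stretch from CYP76M5 to CYP76M6 on chromosome 2 holds 14 genes, 10 of them protein-coding, and 9 were measured. The stretch from CPS4 to CYP99A2 on chromosome 4 holds 9, 6 of them protein-coding, and 5 were measured. Of the 7 other measured genes on chromosome 2, 4 were higher in IR29 at 3 h, all by at least 2-fold. In Nonabokra 6 were lower, 3 by at least 2-fold. Of the 4 others on chromosome 4, 4 were higher in IR29, 3 by at least 2-fold, and 4 lower in Nonabokra, 3 by at least 2-fold. Apart from LOC4329723, described below, these are branch genes already counted above, so the cluster counts are no further support. Of all probe sets at 3 h, 15.7% were higher in IR29 (2.81% by at least 2-fold) and 14.9% lower in Nonabokra (3.29%). Among the 20 measured genes that flank each cluster, 8 were higher and 8 lower in IR29 around the chromosome 2 cluster, and 7 higher and 6 lower around the chromosome 4 cluster, with medians of 0.11 and 0.09. By at least 2-fold these were 2 higher and 2 lower around the chromosome 2 cluster, and 1 higher and 0 lower around the other. Lower in IR29 at 3 h were 48.2% of all probe sets, 1.58% by at least 2-fold. LOC4329723, a gene with no name here and singled out after its values were seen, lies inside the chromosome 2 cluster. In gene order it falls between CYP76M8 and KSL7, and whether it is the phytocassane gene called CYP76M7 was not settled. LOC4329723 averaged 20.3 ± 2.66 without salt in IR29, 685 ± 8.47 at 3 h and 112 at 6 h, a difference of 4.27 at 3 h (adjusted p = 3.46e-14). In Nonabokra it averaged 16.4 ± 4.64 at 3 h, against 150 ± 18.8 without salt, a difference of -2.36 (adjusted p = 1.79e-10). In Pokkali it differed by -0.27 at 3 h (adjusted p = 0.300) and rose by 0.99 at 6 h (adjusted p = 6.69e-05). Its Pokkali mean was 46.3 ± 9.83 at 6 h, against 15.2 ± 1.40 without salt. Since the gene was singled out after these values were seen, its p-values are not independent evidence.

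**Figure D3:**
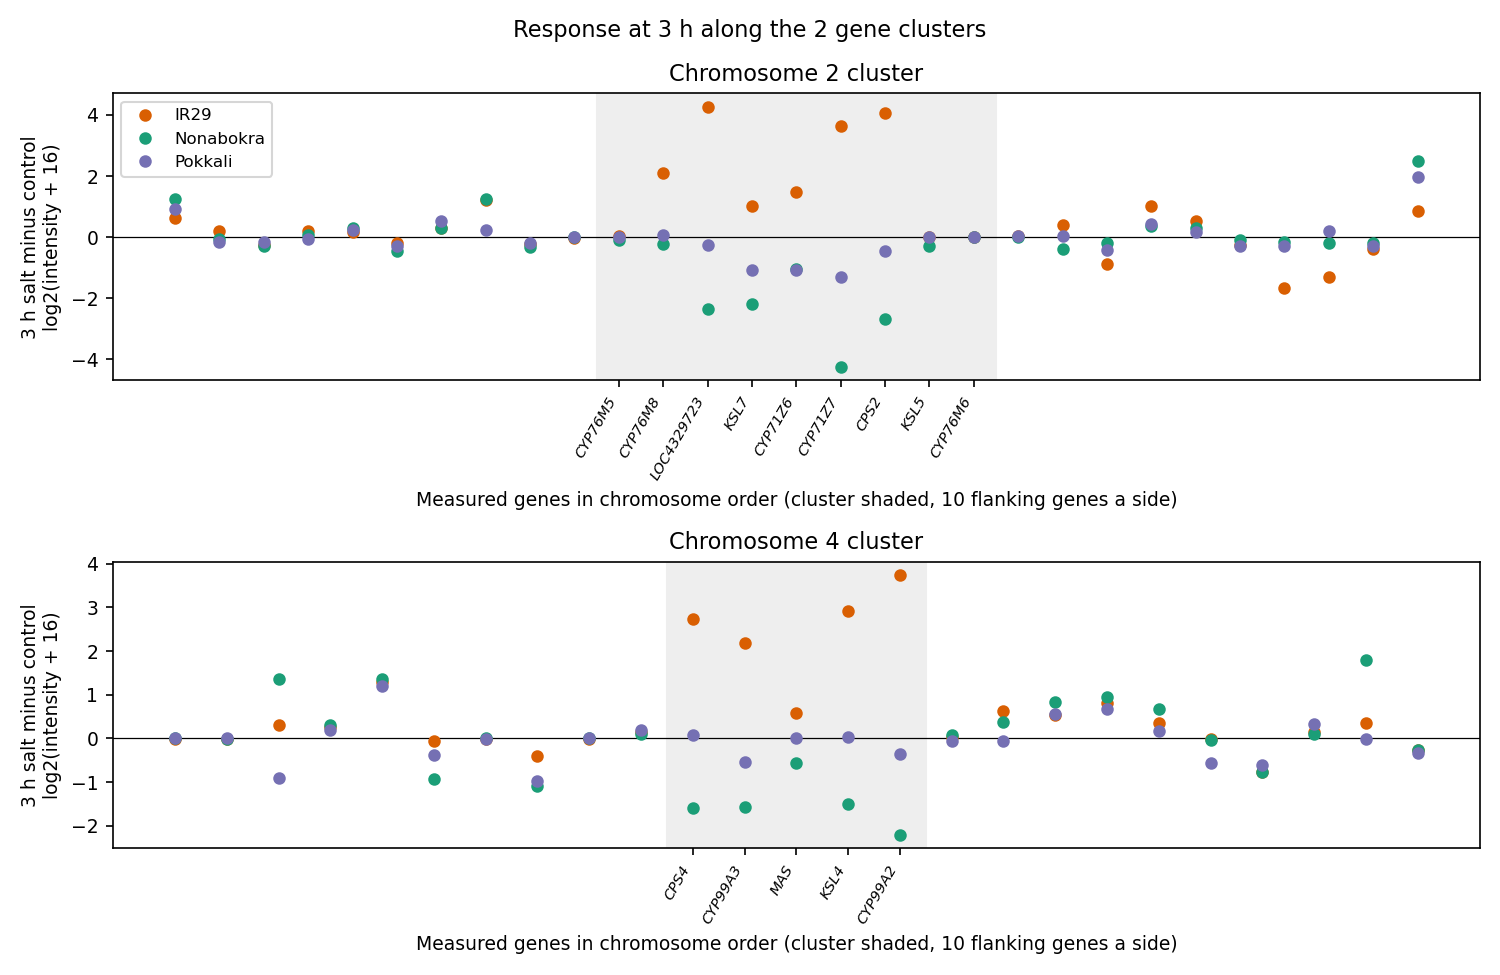
Difference between 3 h of salt and control (log2(intensity + 16)) for measured genes in chromosome order, in IR29, Nonabokra and Pokkali, with each cluster shaded and 10 flanking genes on each side. Inside the shaded stretches IR29 lies above 0 and Nonabokra below it for 4 genes besides CYP71Z7 and CPS2 on chromosome 2 that changed by at least 2-fold in IR29 and for all 5 genes on chromosome 4, while the median of the flanks in IR29 is 0.11 and 0.09.

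Genes of related pathways did not take one direction. Of the gibberellin list, 6 of 16 genes were measured. In IR29 at 3 h, 3 were higher and 2 lower, with 2 higher and 0 lower by at least 2-fold. In Nonabokra, 2 were higher and 3 lower, and in Pokkali 2 were higher and 1 lower. Over all probe sets at 3 h, 15.7% passed as higher and 48.2% as lower in IR29. These shares were 13.0% and 14.9% in Nonabokra, and 11.8% and 13.4% in Pokkali. GA20OX3, a gibberellin 20-oxidase, rose in all 3 cultivars at 3 h, by 1.71 in IR29, 2.16 in Nonabokra and 1.91 in Pokkali, and by 1.53 in IR29 at 6 h. GA20OX2 rose by 1.04 in IR29 at 3 h and by 0.86 at 6 h. KS1, the kaurene synthase of the hormone branch, rose by 0.60 in IR29 at 3 h. KO2, an ent-kaurene oxidase, fell by 0.78 in IR29 at 6 h (adjusted p = 0.00358), which did not pass with the compared groups fitted alone (adjusted p = 0.208). The probe sets of KS1 and KO2 carry suffixes for probes that may match similar transcripts. At 3 h in IR29, 1 gene of the list was lower in place of 2 without unstressed replicate 3, or replicate 1 or 3 at 3 h. CPS1, the hormone counterpart of CPS2, averaged 124 in IR29 at 3 h, against 120 without salt (adjusted p = 0.682). In Nonabokra CPS1 fell by 0.61 at 3 h (adjusted p = 8.99e-06) and by 1.06 at 6 h (adjusted p = 7.68e-09), with means of 73.3 and 49.6 against 121 without salt. In Pokkali it differed by -0.09 at 3 h (adjusted p = 0.730) and fell by 0.36 at 6 h (adjusted p = 0.00405). CPS1 was named outside the rule for named genes.

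Of the list for precursor supply, the plastid pathway to isoprenoid units, 5 of 16 genes were measured. At 3 h, 1 was higher and 1 lower in IR29, 0 higher and 1 lower in Nonabokra, and 0 higher and 2 lower in Pokkali. In IR29, 0 were higher and 0 lower by at least 2-fold. Over all probe sets at 3 h, 15.7% were higher and 48.2% lower in IR29. These shares were 13.0% and 14.9% in Nonabokra, and 11.8% and 13.4% in Pokkali. HDR, the last enzyme of that pathway, differed by 0.30 in IR29 at 3 h (adjusted p = 0.0236) and MCS by -0.20 (adjusted p = 0.0146). At 6 h in IR29, CMK fell by 0.86, MCS by 0.37 and HDS by 0.16. HDR did not pass at 3 h without unstressed IR29 replicate 1 or 2 or 3 h replicate 3, nor MCS without 3 h replicate 1 or 3, nor HDS at 6 h without unstressed replicate 2 or 6 h replicate 1. In Nonabokra 2 were lower at 3 h without unstressed replicate 3, and in Pokkali 1 was lower without any 1 unstressed replicate or 3 h replicate 2 or 3.

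Of the regulators and sensors of phytoalexin synthesis, 6 of 14 were measured, with 3 higher and 1 lower in IR29 at 3 h (1 and 0 by at least 2-fold), 4 higher and 1 lower in Nonabokra, and 2 higher and 2 lower in Pokkali. Without single arrays, from 2 to 3 were higher in Nonabokra, so no such omission kept the count of 4. In Nonabokra 2 were higher and 2 lower without unstressed replicate 3 or 3 h replicate 1. In Pokkali 1 was lower without unstressed replicate 3 or 3 h replicate 1 or 3. Of all probe sets at 3 h, 15.7% were higher and 48.2% lower in IR29. These shares were 13.0% and 14.9% in Nonabokra, and 11.8% and 13.4% in Pokkali. CEBIP, the chitin-binding receptor protein, rose by 1.06 in IR29, 1.01 in Nonabokra and 1.74 in Pokkali. CERK1, its receptor kinase partner, rose by 0.68 in IR29. WRKY76, a repressor of phytoalexin genes, fell by 0.52 in IR29, by 1.90 in Nonabokra and by 1.76 in Pokkali at 3 h, and by 1.66 in IR29 at 6 h. MPK3 rose by 0.51 in IR29 at 6 h.

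Of 11 defence marker genes 3 were measured. PBZ1 averaged 22790 in IR29 at 3 h, against 944 without salt, a difference of 4.57 (adjusted p = 6.25e-20). In Nonabokra it averaged 1295, against 6402 without salt, a difference of -2.29 (adjusted p = 7.17e-16), and in Pokkali 555, against 1437. PBZ1 was thus opposite in IR29 and Nonabokra, as the 3 diterpenoid genes were. The chitinase gene CHT1 was higher at 3 h in each cultivar, by 1.24 in IR29, 0.82 in Nonabokra and 1.99 in Pokkali. CHT3 was higher by 0.30 in IR29, which did not pass after quantile normalization (0.22, adjusted p = 0.0573). The probe set of CHT3 carries a suffix for probes that may match similar transcripts. Of the other labdane-related genes, 2 of 14 were measured. CYP701A9 rose by 2.09 in IR29 at 3 h (adjusted p = 3.01e-11) and fell by 0.64 in Nonabokra (adjusted p = 0.00024), and KSL10 had means under 5 everywhere.

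**Figure D4:**
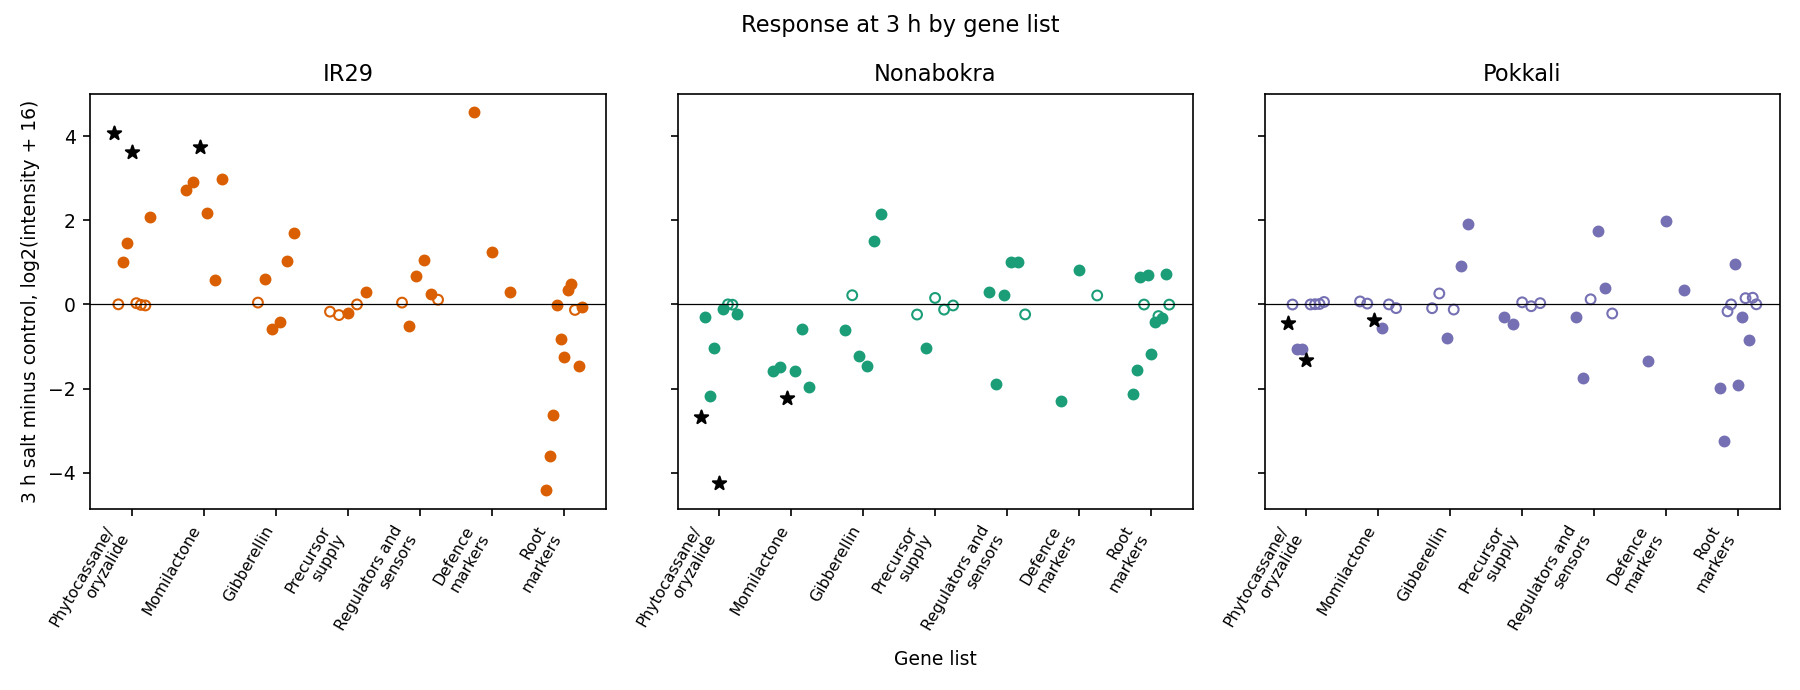
Difference between 3 h of salt and control (log2(intensity + 16)) for the genes of 7 lists in IR29, Nonabokra and Pokkali; filled points have adjusted p under 0.05, open points do not, and black stars are CPS2, CYP71Z7 and CYP99A2, untested in IR29. The momilactone genes lie above 0 in IR29 (median 2.72 without CYP99A2) and below it in Nonabokra (median -1.58), and PBZ1 is the highest point of the IR29 panel at 4.57.

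Markers of roots, which whole seedlings include, also changed in these comparisons. In IR29 at 3 h, 2 of 11 root markers were higher and 8 lower, while 15.7% and 48.2% of all probe sets took these directions. By at least 2-fold, 0 were higher and 5 lower, against 2.81% and 1.58% of all probe sets. At 3 h 3 were higher and 5 lower in Nonabokra (13.0% and 14.9% of all probe sets), and 1 was higher and 5 lower in Pokkali (11.8% and 13.4%). Their summed intensity ran from 31746 to 32809 on unstressed IR29 arrays, from 29389 to 31903 at 3 h and from 8523 to 9279 at 6 h. Most of that sum in IR29 is NAS1 and NAS2, which averaged 13117 and 16260 at 3 h, against 10404 and 11578 without salt, so it does not show the fall of 8 other markers at 3 h. In Nonabokra it ran from 8178 to 9078 without salt, from 2392 to 2550 at 3 h and from 5299 to 5844 at 6 h. In Pokkali it ran from 6159 to 6536 without salt, from 1648 to 1891 at 3 h and from 3468 to 3685 at 6 h. The silicon transporter genes NIP2-1 and LSI2 fell by 4.41 and 3.61 in IR29 at 3 h, and the iron transporter gene IRT1 by 2.62. NAS1 fell by 2.41 in IR29 at 6 h. No marker was listed at 0, and IRT2 had means under 5 in all groups. Of 12 leaf markers 3 were measured, CAB2R, PPDKB and GLO1, and their sum stayed between 36607 and 47500 on the 27 arrays. PPDKB rose by 1.80 in IR29 at 3 h, and at 6 h CAB2R rose by 0.17 and GLO1 by 0.25. The mean log2 of the 24 poly-A spike probe sets ran from 8.08 to 9.23 in the control groups, from 7.90 to 8.38 at 3 h and from 6.35 to 7.49 at 6 h. The part of root share and spike level in the results was not tested.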

How the data were processed

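The 27 arrays of labelled seedling RNA came as one table of linear intensity values, which the authors deposited. Per the submitters' processing notes the scanner software was GCOS, and how probes were summarised and arrays normalised is not given in the sources used here. Of 57381 probe sets, 187 control probe sets were left out. log2(intensity + 16) was fitted with limma 3.58.1 (R 4.3.3), with 1 mean per group over all arrays (18 residual degrees of freedom), and Benjamini-Hochberg adjustment ran over 57194 probe sets per comparison at 0.05. The fit was tested on simulated data. A gene is its probe set of highest mean. CPS2, CYP71Z7, CYP99A2 and the gene lists were chosen with earlier results of these data known, including the fall of CYP71Z7 in Nonabokra. Named genes are these 3, all measured branch genes, per other list the 3 largest passing changes in IR29 at each time, and the 5 most similar genes with a symbol, over probe sets. Detection calls were not used here, and the number of arrays limits the precision. Alternatives were other pseudocounts, scalings, filters, spread models, groups fitted, probe set averages, a replicate block and leaving out arrays.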

Additional observations from a re-analysis of the deposited data

Results flagged for a closer look

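The salt response differed between cultivars by a test of the difference itself for each result named here. Unstressed levels enter each such difference, and those of CPS2, CYP71Z7 and CYP99A2 differed between Nonabokra and Pokkali. For Nonabokra minus Pokkali the log2 difference of responses was -2.22 at 3 h and -2.02 at 6 h for CPS2, -2.94 and -2.47 for CYP71Z7, and -1.85 and -3.76 for CYP99A2. At 6 h CYP99A2 was lower than control in Nonabokra and higher than control in Pokkali, on 3 of 3 arrays in each. For IR29 minus Nonabokra at 3 h the difference of responses was 3.19 for KSL7, 2.52 for CYP71Z6, 2.33 for CYP76M8, 4.31 for CPS4, 4.41 for KSL4, 3.76 for CYP99A3, 1.14 for MAS and 4.94 for CYP701A8. It was 0.30 for KSL5 and 0.13 for CYP76M5, both dim. Neither passed with the compared groups fitted alone (adjusted p = 0.0780 and 0.146), and CYP76M5 did not pass without unstressed Nonabokra replicate 2 or without IR29 replicate 1 at 3 h. Outside the branches it was 2.72 for CYP701A9 and 6.86 for PBZ1, each higher in IR29 and lower in Nonabokra than its control.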

How the results depend on the processing

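The tested differences of CPS2, CYP71Z7 and CYP99A2 in Nonabokra and Pokkali kept their direction and side of the threshold in 437 of 441 recomputations. The exceptions were all between 3 h and 6 h of salt. CPS2 in Nonabokra ran from -0.0226 to 0.00901 without single arrays, changing sign at 0.00901 without replicate 2 at 3 h. CYP71Z7 in Nonabokra ran from 0.0661 to 0.240, passing at 0.24. CPS2 in Pokkali passed at -0.21 with 3 arrays omitted, a setting chosen after seeing the data. The arrays omitted were unstressed Nonabokra replicate 3 and replicate 1 at 6 h of both Nonabokra and IR29. Each of the 3 genes has 1 probe set, so no other probe set could be tried. Fitting the compared groups alone gave 1 branch gene lower in IR29 and 1 higher in Pokkali at 3 h, and 6 higher in unstressed Nonabokra than in Pokkali. Without single arrays, branch genes lower in Nonabokra at 6 h ran from 8 to 10, and fitting the compared groups alone gave 7. Counts of the small lists at 3 h moved by 1 or 2 genes. Under that fit they were 1 gibberellin gene lower in IR29, 2 precursor genes lower in IR29, 1 higher and 1 lower in Pokkali, and 2 regulators higher in Nonabokra and 1 lower in Pokkali. Precursor genes lower in Nonabokra numbered 3 under quantile normalization and 2 without the dimmest 40%, with probe set means or with 3 arrays omitted, when 1 was higher there and 2 were lower in IR29. Regulators in Nonabokra had 2 lower under those 4 settings and 2 higher with 3 arrays omitted, and 1 was lower in Pokkali under quantile normalization. Root markers had 1 higher in IR29 with a pseudocount of 1 and 2 higher in Pokkali with 3 arrays omitted. Without single arrays the counts ran from 1 to 2 for gibberellin genes lower in IR29, from 0 to 1 for precursor genes higher and for those lower in IR29, from 1 to 2 for those lower in Nonabokra and in Pokkali, and for regulators from 2 to 3 higher and 1 to 2 lower in Nonabokra and from 1 to 2 lower in Pokkali. Fitting the compared groups alone also ended the calls of CYP701A9 and CYP76M5 in Nonabokra at 3 h and of MPK3, HDS, CAB2R and GLO1 in IR29 at 6 h. The leaf marker GLO1 reversed with probe set means, to 0.0931 in Nonabokra and 0.00711 in Pokkali at 3 h and -0.0284 between the unstressed cultivars. Rank correlation kept 1, 3 and 2 of the 5 similar genes. The cause of these moves was not tested. The replicate block changed no call of the 3 genes or list count: CPS2 in Nonabokra at 3 h was -2.67 with the block. Same-numbered arrays correlated at over 0.1 in every pair for 2 of 36 pairs of groups, so the numbers were not taken as pairs. The 2 were IR29 with Nonabokra at 6 h (0.72, 0.42 and 0.40) and unstressed Nonabokra with unstressed Pokkali (0.47, 0.16 and 0.19). Whether these arrays share a processing effect was not tested.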
